A study of Mus musculus with 28 samples.

Results

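The 10 genes described here encode enzymes that build sphingolipids: Sptlc1, Sptlc2, Cers1, Cers2, Degs1, Ugcg, Ugt8a, B4galt5, B4galt6 and St3gal5. They were taken by gene symbol, and all 10 were found among the 26216 symbols of the deposited mouse count tables, in the SynSURF table (25239 symbols) and in the sucrose table (24443 symbols). Their mRNA was measured in synaptosomes, the pinched-off nerve endings that form when brain tissue is homogenised. The SynSURF libraries came from synaptosomes handled with a reversible fixative, 10 libraries after particle sorting and 10 from the crude pellet before it. The sucrose gradient libraries were 3 after sorting and 3 crude. All 26 were poly(A) RNA libraries from mouse brain. In both preparations a sorted library was made from about 30000000 particles and a crude one from about 15000000, so sorting and input cannot be told apart. The sources used here name no strain, genotype, age, sex or treatment other than the preparation itself. The labels call the material primary neurons.

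Sphingolipid synthesis starts when serine palmitoyltransferase joins serine to palmitoyl-CoA, and ceramide synthases and a desaturase then make ceramide. Ceramide that receives glucose and then galactose becomes lactosylceramide, and a first sialic acid turns that into GM3, the parent of the brain's main gangliosides, which are abundant in neuronal membranes. Ceramide that receives galactose instead becomes galactosylceramide, a major lipid of myelin made by oligodendrocytes. Changes in the mRNA of an enzyme in a synaptosome fraction are not a measure of the lipid or of the enzyme.

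The list takes its members by their place in the pathway, but it was selected on SynSURF sorted-over-crude values in so far as those of Sptlc1 and Ugt8a were known when it was drawn up. The SynSURF contrast is therefore given as a description, with no p-value for any gene, and where genes are counted as past the threshold of its fit over all genes, nothing is read from the count. The sucrose libraries, which are other samples, carry the tests. Levels are in CPM, a gene's counts relative to the TMM-scaled library total, a scaling that sets most genes level between libraries.

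SynSURF sorted libraries held 76520 to 1812759 counts, against 1035423 to 8897238 in SynSURF crude ones, so a single count weighed far more in the sorted libraries. A count was seen for 2588 to 6630 genes in SynSURF sorted libraries, against 12236 to 14701 in SynSURF crude ones. Sucrose sorted libraries held 3018604 to 5196050 counts, against 1844679 to 6793374 in sucrose crude ones. Neuronal markers were present, 9 of 9 with counts in each of the 4 groups when libraries were pooled. So were all 11 oligodendrocyte and all 9 astrocyte markers, although the labels name neurons alone. Single SynSURF sorted libraries held counts of 5 to 9 neuronal and 2 to 7 astrocyte markers, against 9 of each in every crude one. Astrocyte markers summed to 582 to 11017 CPM in SynSURF sorted libraries, against 5087 to 14602 CPM in SynSURF crude ones. Oligodendrocyte markers summed to 19366 to 99058 CPM in SynSURF sorted libraries, against 3271 to 6793 CPM in SynSURF crude ones. Neuronal markers summed to 2373 to 12275 CPM in SynSURF sorted libraries, against 3722 to 5468 CPM in crude ones. Of 5 endothelial markers 4 (Cldn5, Flt1, Pecam1 and Ly6c1) were at 0, as was the microglial Cx3cr1, in the SynSURF sorted libraries. The part of cell makeup in the results below was not tested, and in such bulk samples fewer particles of a type cannot be told apart from less RNA per particle.

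In crude SynSURF libraries, 8 of the 10 genes had a mean level above that of 85.1% or more of all gene symbols, and Cers1 was barely detected. Per kilobase of the longest annotated transcript, Ugcg stood highest at 48.3 ± 14.4 CPM per kb (SD, n = 10). It was followed by B4galt6 (44.4 ± 11.8), B4galt5 (40.1 ± 25.98), Degs1 (37.0 ± 9.50), Sptlc1 (34.2 ± 12.1) and Cers2 (33.9 ± 15.8), all in CPM per kb, and each of these lay within 1 SD of its neighbours. St3gal5 (16.4 ± 4.33 CPM per kb), Ugt8a (9.29 ± 5.51 CPM per kb) and Sptlc2 (2.93 ± 1.19 CPM per kb) came next. The order in the 3 crude sucrose libraries was similar at its low end, with Sptlc2 at 4.07 ± 0.244 CPM per kb and Cers1 at 0, and Degs1 was highest there at 62.0 ± 17.9 CPM per kb. Among the 9 genes other than Cers1, the coefficient of variation over crude SynSURF libraries was highest for B4galt5 (64.8%) and Ugt8a (59.3%) and lowest for Degs1 (25.7%).

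**Figure D1:**
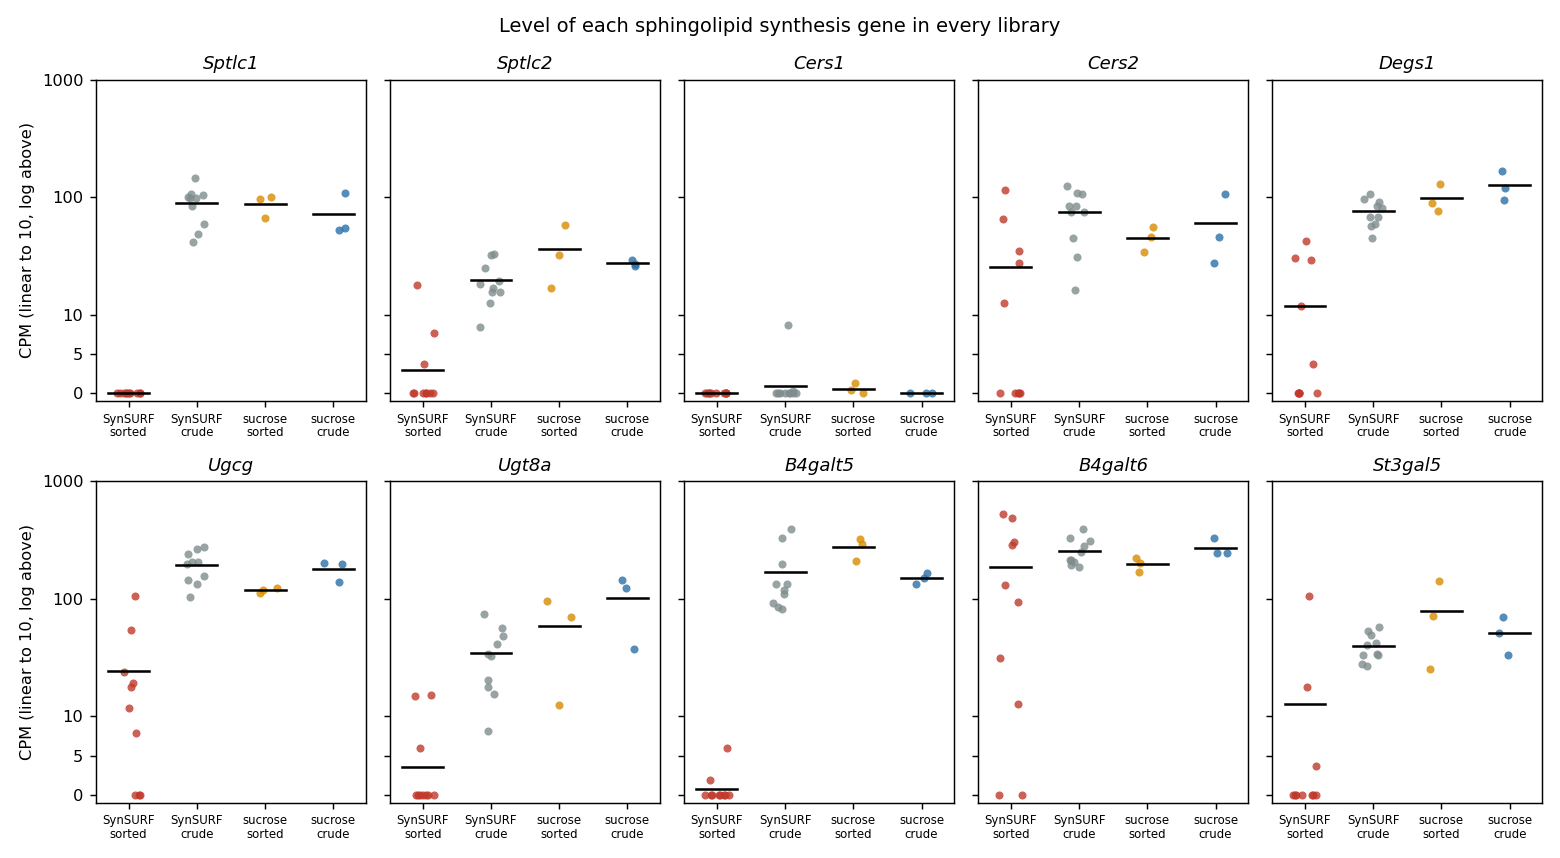
CPM of the 10 genes (vertical axis, linear to 10 and logarithmic above) in every SynSURF sorted, SynSURF crude, sucrose sorted and sucrose crude library, 1 point a library, with the group mean as a bar. Sptlc1 lies at 0 in all 10 SynSURF sorted libraries and B4galt5 in 8 of them, while all 3 sucrose sorted libraries hold both genes at 66.1 CPM or more.

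Sptlc1 encodes the non-catalytic subunit of serine palmitoyltransferase, the enzyme of the committed first step, and Sptlc2 its catalytic partner. Sptlc1 had no count in any of the 10 SynSURF sorted libraries, against a lowest, median and highest level of 41.3, 98.2 and 147 CPM in the crude libraries (69 to 1383 counts each). No sorted library reached any crude library. At the crude mean level the 10 sorted libraries would have held 134 counts of Sptlc1 in all, 4.66 in the shallowest and 48.2 in the deepest. With 3 counts in all sorted libraries together taken as the detection limit, Sptlc1 was at least 50.5-fold lower in sorted than in crude libraries, and at least 146-fold lower with plain library totals in place of TMM. Of 6598 genes tested in this preparation, 146 (2.21%) likewise had no count in any sorted library. The median tested gene had a count in 5 of the 10 sorted libraries. Expected counts here and below reflect read depth alone, and loss of molecules before sequencing was not tested.

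Sptlc2 kept 6 counts in 3 SynSURF sorted libraries, where the crude mean level would have given 29.5. Its lowest, median and highest levels were 0, 0 and 17.9 CPM in sorted libraries, against 8.49, 17.5 and 32.7 CPM in crude ones, and 9 of 10 sorted libraries lay below the lowest crude one. The log2 fold change was -2.33 ± 0.60 (SE), and -3.27 without sorted replicate 2. In the 3 sorted libraries with a count of either gene, all counts were those of Sptlc2, whereas Sptlc1 took 86.9% to 94.8% of the pair's counts per kb in crude libraries.

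Ceramide synthases attach a fatty acid to the sphingoid base, Cers1 a long-chain one in neurons and Cers2 very long-chain ones, the kind rich in myelin. Cers1 could not be followed. It had no count in any SynSURF sorted library and counts in 2 of 10 crude libraries (71 and 2). Gdf1, a growth factor gene read from the same bicistronic message, lies within Cers1 (GRCm38, chromosome 8, 70329817 to 70331587 within 70315775 to 70331592, same strand), and its whole annotated transcript of 1349 bases is repeated in a Cers1 transcript. The 30 bases from the Gdf1 start codon (ATG in capitals), which occur in 2 of the 3 annotated Cers1 transcripts, are shown because a read of them matches both genes.
Gdf1 start, chr8:70329982-70330011, plus strand: ATGctccctgtctgccatcgtttttgcgac
Gdf1 itself had 14.6 ± 13.0 CPM in crude SynSURF libraries (SD, n = 10), and 1 count in all 10 sorted libraries together. A read from the shared bases could belong to either gene, and how such reads were assigned is not known.

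Cers2 had 48 counts in 5 SynSURF sorted libraries, where the crude mean level would have given 113. Its levels ran from 0 through a median of 6.32 to 114 CPM in sorted libraries, against 16.3, 80.0 and 125 CPM in crude ones, and the groups overlapped. The log2 fold change was -1.48 ± 0.77, and -2.14 without sorted replicate 4, which alone stood at 114 CPM. Degs1, the desaturase that turns dihydroceramide into ceramide, had 15 counts in 5 sorted libraries, where 114 would have been expected. Every sorted library (0 to 42.1 CPM, median 1.85) lay below every crude library (45.4 to 107 CPM, median 74.4), with a log2 fold change of -2.69 ± 0.72.

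Ugcg adds glucose to ceramide and opens the ganglioside route, and Ugt8a adds galactose and opens the myelin route. Ugcg levels ran from 0 through 14.8 to 107 CPM in SynSURF sorted libraries, against 104.6, 203 and 274 CPM in crude ones, so only sorted replicate 4 reached the lowest crude library. Its log2 fold change was -2.97 ± 0.72, and -3.71 without that library, and 38 counts stood where 291 would have been expected. Ugt8a had counts in sorted replicates 1, 2 and 4 only, with a median of 0 and a highest level of 15.2 CPM, against 8.20, 33.4 and 74.4 CPM in crude libraries. Its log2 fold change was -2.69 ± 0.67, -3.50 without sorted replicate 1, and -4.89 without sorted replicates 1 and 4. In these sorted libraries the summed oligodendrocyte markers all lay above every crude library, but only 6 to 9 of the 11 markers had a count in any 1 sorted library, against 11 in each crude one.

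The lactosylceramide synthases B4galt5 and B4galt6, which add galactose to glucosylceramide, differed from each other. B4galt5 had 2 counts in all SynSURF sorted libraries together, 1 each in replicates 1 and 2, against 82.7, 127 and 396 CPM (lowest, median and highest) in crude libraries, where the crude mean level would have given 253 counts. Pooled over libraries it was 105.1-fold lower in sorted than in crude libraries (exact counting interval 29.1 to 868, which covers counting error only), and 304-fold lower with plain library totals (84.0 to 2507). B4galt6 had 258 counts where 387 would have been expected. Its levels ran from 0 through 113 to 524 CPM in sorted libraries, against 186, 232 and 391 CPM in crude ones, with a log2 fold change of -0.46 ± 0.73. With plain library totals it was -1.31, beside a median of -1.28 over all genes tested. It was at 0 in sorted replicates 4 and 9, while replicates 7 (491 CPM) and 10 (524 CPM) lay above every crude library.

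A share within a library does not depend on scaling. Per kb, B4galt6 made up 94.1% to 100% of the pair's counts in the 8 SynSURF sorted libraries with a count, against 31.4% to 74.4% in the 10 crude libraries. The groups did not overlap, but B4galt5 had a count only in sorted replicates 1 and 2, so the share had to be 100% in the others. It rested on 1 count in replicate 6 and 3 counts in replicate 3. How many other gene pairs separate in this way was not computed, and nothing is read from the separation. The longest run of identical bases between annotated B4galt5 and B4galt6 transcripts is 21.

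**Figure D2:**
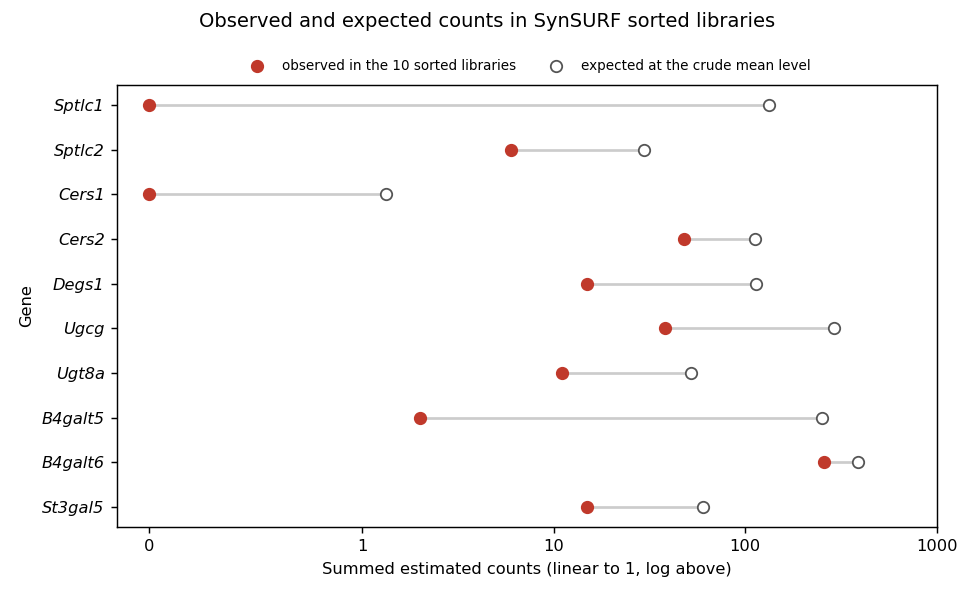
Summed estimated counts of each gene (horizontal axis, linear to 1 and logarithmic above) observed in the 10 SynSURF sorted libraries (filled) and expected there at the crude mean CPM (open). B4galt6 kept 258 of 387 counts, B4galt5 2 of 253 and Sptlc1 0 of 134.

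St3gal5, the GM3 synthase that adds the first sialic acid, had 15 counts in 3 SynSURF sorted libraries, 10 of them in replicate 3. Sorted libraries ran from 0 (median 0) to 105.4 CPM, against 27.0, 37.6 and 57.2 CPM in crude ones, so that 9 of 10 lay below every crude library and replicate 3 above them all. The log2 fold change was -1.69 ± 0.77, and -3.62 without that library.

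Of the 10 genes, 9 entered the SynSURF fit over all genes. In it 6 of them passed an edgeR adjusted p of 0.05 downward (Sptlc1, Sptlc2, Degs1, Ugcg, Ugt8a and B4galt5) and 0 upward, where 22.1% of the 6598 genes tested passed downward, 7.62% upward and 29.7% in either direction. Their median log2 fold change was -2.69, against -0.18 over all genes tested. For Sptlc1, Degs1 and B4galt5 every sorted library lay below every crude one, as for 8.73% of tested genes, and for none did every sorted library lie above (0.152%). Since the genes were chosen with this contrast in view, and since the crude libraries alone could let them pass the expression filter, nothing is read from these counts.

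The second comparison asked whether sorting moved the same mRNAs in the sucrose gradient preparation, where sorted libraries were about as deep as crude ones. None of the 9 genes tested passed (edgeR adjusted p = 0.999 for each, and the background was 0% of 10589 genes tested, with 324 at an unadjusted p under 0.05). Their median log2 fold change was -0.36, against -0.04 over all genes tested. Sorted and crude libraries of the same number deviated together here, with correlations of 0.395 to 0.533 over genes, so each gene is given with its 3 pairs. A fit with the replicate number as a block called 1 gene of all and none of the 9.

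Sptlc1, without a count in SynSURF sorted libraries, was present in all 3 sucrose sorted libraries at 101, 97.3 and 66.1 CPM, against 55.2, 108 and 52.2 CPM in crude replicates 1 to 3. It was higher in 2 of 3 pairs, with a log2 fold change of 0.29 (95% interval -0.67 to 1.25, not adjusted over genes, as are all intervals here). Its lower bound is far from the SynSURF difference of at least 50.5-fold, although the difference between the preparations was not tested. Sptlc2 had 32.5, 58.4 and 16.9 CPM in sorted libraries, against 27.1, 29.1 and 25.8 CPM in crude ones, with a log2 fold change of 0.40 (-0.76 to 1.55). That value rested on sorted replicate 2, and was -0.15 without it.

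B4galt5 was the 1 gene of the 10 whose sucrose sorted libraries all lay above every crude one, at 322, 211 and 295 CPM in sorted libraries and 166, 152 and 135 CPM in crude ones. That held for 4.57% of the genes tested. Its log2 fold change was 0.87 (0.07 to 1.67, edgeR adjusted p = 0.999), and 0.85 (0.30 to 1.41, edgeR adjusted p = 0.449) with the replicate block. B4galt6 lay the other way in all 3 pairs, at 223, 168 and 203 CPM in sorted libraries, against 244, 328 and 246 CPM in crude ones, with a log2 fold change of -0.46 (-1.25 to 0.32). B4galt6 and Ugcg were the 2 genes whose sorted libraries all lay below every crude one, as for 3.84% of genes tested.

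The B4galt6 share of the pair, per kb, was 34.4% ± 1.93 in sucrose sorted libraries and 56.5% ± 4.70 in sucrose crude ones (SD, n = 3 each). The groups did not overlap, and the 2-sided exact permutation test gave p = 0.1, the smallest that 3 against 3 libraries allow. This share was looked at after its values were seen. The SynSURF crude median was 53.3%, and the sorted libraries of the 2 preparations lay on opposite sides of their own crude libraries, a difference that was not tested. The shares of Sptlc1 with Sptlc2 and of Ugt8a with Ugcg in sucrose libraries were also computed, and gave exact permutation p = 0.9 and 0.6. None of these permutation tests kept the pairs by replicate number.

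**Figure D3:**
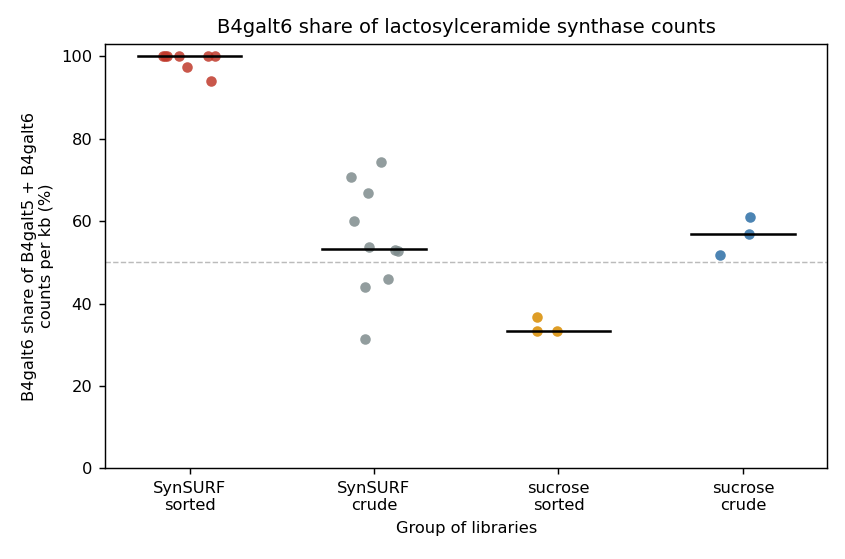
B4galt6 share of the counts per kb of B4galt5 and B4galt6 together (vertical axis, %), 1 point a library with the group median as a bar, and 50% dashed. The 8 of 10 SynSURF sorted libraries with a count lie at 94.1% or more, and the share had to be 100% where B4galt5 had no count. Sucrose sorted libraries lie at 36.7% or less. The SynSURF ones lie above and the sucrose ones below the crude libraries of their own preparation.

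Ugcg had 125, 119 and 113 CPM in sucrose sorted libraries, against 198, 203 and 138 CPM in crude ones. Its log2 fold change was -0.60 (-1.41 to 0.21), and -0.58 (-1.14 to -0.01, edgeR adjusted p = 0.560) with the replicate block. Ugt8a split by replicate number more than by sorting. Replicate 2 had 12.5 CPM sorted and 37.4 CPM crude, while replicates 1 and 3 had 95.5 and 70.0 CPM sorted, against 146 and 124 CPM crude. It was lower after sorting in 3 of 3 pairs, with a log2 fold change of -0.79 (-2.28 to 0.71, edgeR adjusted p = 0.999), and -0.99 (-1.67 to -0.31, edgeR adjusted p = 0.472) with the block. The summed oligodendrocyte markers were lower after sorting in pairs 1 and 3 and higher in pair 2, and stood at 5925, 6515 and 6698 CPM in sorted replicates 1 to 3, against 6276, 5896 and 10914 CPM in crude ones.

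Degs1 was lower in sorted libraries in 3 of 3 pairs, by 0.31 to 0.41 on the log2 scale, with 131, 76.8 and 89.2 CPM in sorted libraries and 167, 94.99 and 119 CPM in crude ones (log2 fold change -0.36, interval -1.26 to 0.54). Degs1, Ugcg, Ugt8a and B4galt6 were the genes lower in every pair, and 16.7% of tested genes were so. Cers2 had 34.1, 55.4 and 45.9 CPM in sorted libraries, against 27.6, 106 and 46.2 CPM in crude ones, with a log2 fold change of -0.41 (-1.57 to 0.74), which turned to 0.30 without crude replicate 2. St3gal5 had 72.2, 141 and 25.4 CPM in sorted libraries, against 50.9, 70.6 and 33.5 CPM in crude ones, with a log2 fold change of 0.62 (-0.65 to 1.89), and -0.095 without sorted replicate 2. Cers1 stayed under the expression filter, with 6 counts in the sorted libraries and 0 in the crude ones.

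**Figure D4:**
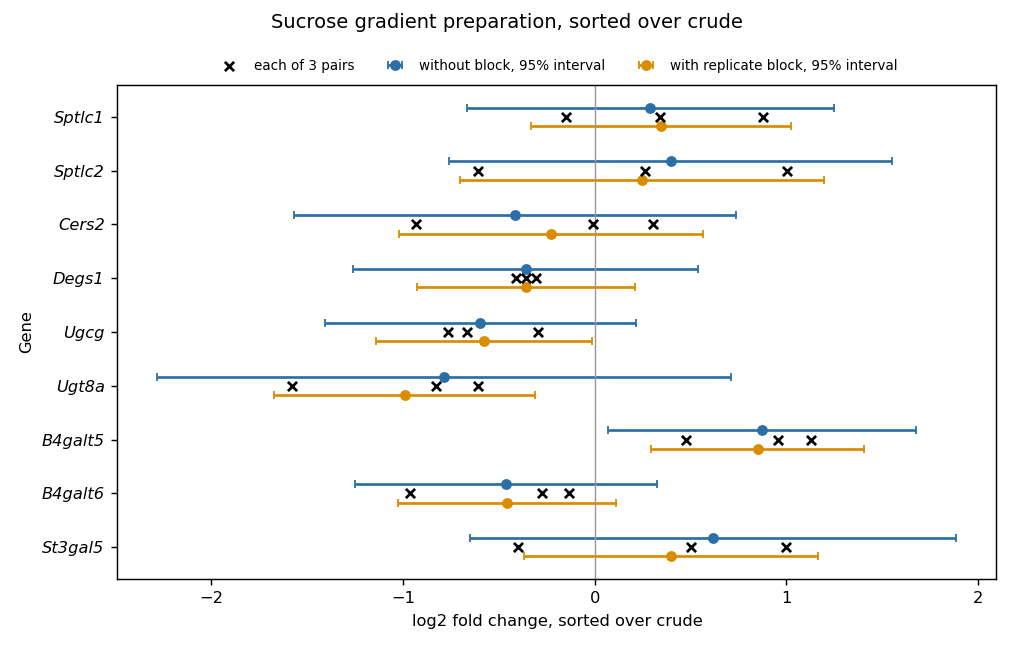
Log2 fold change of sorted over crude (horizontal axis) in the sucrose preparation for the 9 genes tested, as fitted without a block (blue) and with the replicate block (orange), each with its 95% interval, and as measured in each of 3 pairs (crosses). B4galt5 lies above 0 in every pair, and Degs1, Ugcg, Ugt8a and B4galt6 below 0.

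The other genes of sphingolipid metabolism numbered 64, listed by role. In the sucrose preparation 51 were tested and 0 passed in either direction (background 0%), with a median log2 fold change of -0.001, against -0.04 over all genes tested. Psap, the precursor of the saposins that aid lysosomal sphingolipid breakdown, was the most abundant, at 1489 ± 950 CPM in sorted and 723 ± 416 CPM in crude libraries (SD, n = 3 each; log2 fold change 1.04, interval -0.10 to 2.18). St8sia3, a sialyltransferase of neural tissue, had 154 ± 44.8 CPM in sorted and 161 ± 50.6 CPM in crude libraries. Sptssa, a small subunit that activates serine palmitoyltransferase, had 40.7 ± 11.9 CPM in sorted and 73.3 ± 20.2 CPM in crude libraries (log2 fold change -0.85, interval -1.81 to 0.11). Ormdl3, an inhibitor of that enzyme, had 67.2 ± 15.2 CPM in sorted and 70.0 ± 48.9 CPM in crude libraries. S1pr1, a receptor for sphingosine 1-phosphate, had 98.04 ± 19.1 CPM in sorted and 155 ± 43.0 CPM in crude libraries (log2 fold change -0.66, interval -1.52 to 0.21).

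In the SynSURF preparation 34 of the 64 were tested, and as a description 17 passed downward and 2 upward, beside 22.1% and 7.62% of all genes tested. Their median log2 fold change was -1.87, against -0.18 over all genes tested. By role, 5 of 7 tested ganglioside-series genes passed downward and 0 upward, beside the same shares of all genes. St8sia3 had 9.77 ± 16.6 CPM in sorted and 133 ± 41.5 CPM in crude libraries (SD, n = 10 each), and St6galnac6, another sialyltransferase, 231 ± 517 CPM in sorted and 104 ± 46.6 CPM in crude ones. Of 11 degradation genes tested, 5 passed downward and 0 upward, beside 22.1% and 7.62% of all genes, and Psap had 329 ± 427 CPM in sorted and 618 ± 182 CPM in crude libraries, with a count in all 10 sorted ones. Both genes that passed upward act on sphingolipid hydroxylation. Fa2h, the fatty acid 2-hydroxylase of myelin, had 88.5 ± 186 CPM in sorted and 11.6 ± 8.10 CPM in crude libraries, with counts in 3 of 10 sorted ones. Degs2, a desaturase and hydroxylase, had 124 ± 292 CPM in sorted and 11.9 ± 3.85 CPM in crude libraries, with counts in 5 of 10 sorted ones. They were named after their values were seen. Cers5 and Cers6, 2 further ceramide synthases, had counts in 1 and 3 of 10 sorted libraries and passed downward. Ormdl3, at 39.96 ± 26.8 CPM in crude libraries, had no count in any sorted library and did not pass the expression filter, whereas Sptssa had counts in 8 of 10, with 70.3 ± 79.7 CPM in sorted and 44.6 ± 8.31 CPM in crude ones.

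Over all 26 libraries the genes with a pattern most like Sptlc1 were Unc79, Lrp12 and Slc1a4. Likeness was the root mean square difference of centred log2(CPM + 1), which was 0.37, 0.44 and 0.45 for them, against a median of 2.61 over the 7088 other genes compared. Each had a mean of 0 CPM in SynSURF sorted libraries, the feature that sets this measure. The genes most like Ugt8a were Trim27 (0.76), Sec63 (0.77) and Rnf103 (0.83, median of all 2.25), none of them in the lists of myelin or lipid genes used here. Among the 10 crude SynSURF libraries, no gene followed the summed oligodendrocyte or neuronal markers past adjustment over the 18 relations computed. The lowest unadjusted Pearson p-values were those with oligodendrocyte markers of Ugcg (Pearson r = -0.70, permutation p = 0.026, adjusted p = 0.297; Spearman rho = -0.70, permutation p = 0.031, adjusted p = 0.209) and Ugt8a (Pearson r = 0.65, permutation p = 0.044, adjusted p = 0.297; Spearman rho = 0.58, permutation p = 0.089, adjusted p = 0.316). St3gal5 had as large a rank correlation with them (Spearman rho = 0.70, permutation p = 0.030, adjusted p = 0.209; Pearson r = 0.62, permutation p = 0.061, adjusted p = 0.297). Without the 2 libraries farthest from the median of the marker sum, r was -0.52 for Ugcg, 0.61 for Ugt8a and 0.44 for St3gal5.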

How the data were processed

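The authors deposited estimated counts of reads per gene symbol, in one table per preparation. Per the submitters' processing notes, fastp, HISAT2, GRCm38 and GRCm39 were used, whose roles and versions are not stated. How reads were counted (tool, annotation, strand, build) is not given in the sources used here. Per the labels' protocols, a whole-transcriptome amplification kit preceded 10x Genomics libraries read in paired-end mode. Values that were not whole (7278 in the SynSURF and 4660 in the sucrose table) were rounded. The 44 other columns of per-sample values and 2 total RNA samples were not used here.

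Groups came from sample titles. Sorted and crude libraries were compared within each table by edgeR 4.0.16 (R 4.3.3) quasi-likelihood tests with TMM factors, filterByExpr, no covariate, and a threshold of 0.05 on Benjamini-Hochberg adjusted p over all genes tested. The procedure was checked on simulated data that had the same dispersion for all genes and libraries. That check did not cover the spread between SynSURF sorted libraries. Nothing in the labels ties replicates to separate animals, and p-values therefore reflect only how these libraries spread, possibly for technical reasons. Members, the pathway list, the marker lists and the naming rule were chosen with earlier results of these data known. The rule names all 10 members, and up to 10 pathway genes past the threshold in the sucrose preparation, otherwise the 2 most abundant in crude libraries of each role, of which the text gives some. Same-numbered sucrose libraries correlated in their deviations from group means by 0.395 or more and were read as pairs, although no label says so. In SynSURF the correlations were 0.045 to 0.179, weaker but all positive, and most sorted libraries correlated best with their own number. The main SynSURF fit did not use the numbers as pairs, so it ignores any pairing there. A fit with them as a block is among the alternatives. Positions and transcript lengths are from GENCODE M21 (GRCm38), which held 96.5% of SynSURF and 96.2% of sucrose symbols. The exact counting intervals and the floors of 3 counts cover counting error only. Intervals of the fits also take in the spread between libraries. Alternatives were DESeq2 size factors, library totals, the DESeq2 1.42.0 Wald test, no filter, a mean of at least 5 CPM, a replicate block and left-out libraries.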

Additional observations from a re-analysis of the deposited data

Results flagged for a closer look

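In 5 of 18 groups of 10 libraries, 1 library stood apart from the rest by more than Dixon's 95% limit. That limit is set for normally distributed values, so its chance rate does not apply here. The flagged groups of Sptlc2, B4galt5, St3gal5 and Cers1 had a count in only 2 or 3 of 10 libraries. Of the 5 values, 4 were from SynSURF sorted libraries with a few counts where the others had none or lower levels: Sptlc2 at 17.9 CPM in replicate 2 (3 counts), B4galt5 at 5.96 CPM in replicate 2 (1 count), Ugcg at 107 CPM in replicate 4 (14 counts) and St3gal5 at 105.4 CPM in replicate 3 (10 counts). The other was Cers1 at 8.67 CPM in SynSURF crude replicate 6, which held 71 of its 73 crude counts.

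B4galt5 lay below the crude mean in all 10 SynSURF sorted libraries and above it in all 3 sucrose sorted libraries (log2 fold change 0.87 in the sucrose preparation). The difference between the preparations was not tested.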

How the results depend on the processing

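SynSURF calls over all genes numbered 1961 (503 higher, 1458 lower), 3070 with the DESeq2 Wald test, 4417 with no filter, 3263 at a mean of at least 5 CPM, and 1555 to 2646 without any 1 library. With library totals 100 were higher and 2592 lower, with an all-gene median of -1.28 on the log2 scale in place of -0.18. With the replicate block 37 were higher and 2640 lower, with an all-gene median of -1.97. The all-gene median was -0.87 with the DESeq2 Wald test and -0.72 without sorted replicates 1 and 4. It was -0.39 without sorted replicate 4 and -0.37 without sorted replicate 3. The values of single genes below stand beside these shifts of all genes. No label says what the SynSURF numbers share, and not every same-number correlation was above 0.1, but all were positive and 8 of 10 sorted libraries correlated best with their own number, a hint of pairing from the data. Of the 10 members, 6 were called, 5 to 7 without any 1 library, and 5 to 8 under every alternative run, all lower. No member changed direction in SynSURF under any alternative run. Cers2 passed with library totals (-2.81), the replicate block (-2.56), without sorted replicate 4 (-2.14) and without replicates 1 and 4 (-2.40). St3gal5 passed with library totals (-2.56), DESeq2 (-1.82), the block (-3.54) and without sorted replicate 3 (-3.62). The members were chosen with this contrast in view, so these calls only describe how the fit depends on its settings. Nothing is read from them about the genes. Ugt8a fell under the filter when any 1 crude library other than replicate 2 or 8 was left out, so it lay at the edge of the filter.

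Sucrose calls numbered 0, and 1 (lower) with DESeq2, with no filter, with the replicate block and without crude replicate 2, so 0 to 1 without any 1 library. With DESeq2, no filter or the block it was Pcdhga11, named after its values were seen. No member was called in any alternative. Without any 1 library Cers2 ran from -0.75 to 0.30 (without crude replicate 2), Sptlc2 from -0.15 (without sorted replicate 2) to 0.75, and St3gal5 from -0.095 (without sorted replicate 2) to 1.06. Depth is 1 limit of the SynSURF sorted values. At the crude mean level 3 counts or more were expected in all 10 libraries for Sptlc1 and B4galt5. They were expected in 3 libraries for Sptlc2 and in 0 for Cers1. Whether molecules were lost before sequencing was not tested, and these expected counts do not allow for it. Without sorted replicate 1, B4galt6 kept 207 of 248 expected counts, B4galt5 1 of 162 and Sptlc1 0 of 85.6.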
